A study of Mus musculus with 2 samples.

Results

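The Hox cluster microRNA genes are the 6 hairpin genes Mir10a, Mir10b, Mir196a-1, Mir196a-2, Mir196b and Mir615, found by their GENCODE M21 symbols among the 2202 microRNA genes counted in the mouse heart. Small RNA libraries had been made from total RNA of heart tissue of adult female B6CASTF1/J mice, the first-generation hybrid of C57BL/6J and CAST/EiJ, at an age of 18 to 20 months, with no treatment named and a size range under 30, for which no unit is stated. The 2 libraries form 1 group and are numbered as biological replicates. Each has its own tissue record, but both name the same donor record. The SDs below therefore measure only the spread between these 2 libraries, which may be technical. The p-values set the difference between the 2 libraries against counting noise and do not measure that spread. With 1 group there is no contrast of conditions, and the question here is how the anterior miR-10 loci stood against the other Hox loci in the aged heart.

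Hox genes encode transcription factors that give body segments their identity, and they lie in clusters whose order along the chromosome follows their order of use from head to tail. MicroRNA genes sit between them and are often transcribed with their neighbours. A microRNA hairpin is cut into a short mature RNA, which guides Argonaute to messenger RNAs that pair with its seed, the bases 2 to 8. The miR-10 genes accompany the Hox4 paralogs and miR-10a is known from endothelial cells, where it restrains inflammatory signalling. The miR-196 genes accompany the Hox9 paralogs of the trunk and tail, and miR-615 is encoded inside Hoxc5.

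The mature sequences, from RefSeq on GRCm38.p6, fall into 3 groups by the seed of the arm that names the family. They are shown for these groups, and because loci that share a whole mature sequence, not only a seed, cannot be told apart by its reads. All 6 genes had mature sequences in that table. Capitals mark the seed.
miR-10a-5p (Mir10a): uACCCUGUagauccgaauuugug
miR-10b-5p (Mir10b): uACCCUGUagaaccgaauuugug
miR-196a-5p (Mir196a-1 and Mir196a-2): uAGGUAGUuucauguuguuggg
miR-196b-5p (Mir196b): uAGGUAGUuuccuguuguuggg
miR-615-3p (Mir615): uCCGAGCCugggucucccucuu
miR-615-5p (Mir615): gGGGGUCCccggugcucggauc

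Mir10a and Mir10b share the seed ACCCUGU, and no other gene of the table carries it at bases 2 to 8. Their 5p arms differ at 1 of 23 bases, U12A from miR-10a to miR-10b, counted from the 5′ end. The 3 miR-196 genes share AGGUAGU, again with no further gene, and miR-196a-5p and miR-196b-5p differ at 1 of 22 bases, A12C. Both families thus vary at the same position, outside the seed. Neither arm of miR-615 shares its seed with another gene.

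The hairpins show which members share a mature arm. Matches were searched in annotated transcripts only, and other places in the genome were not checked. The arm miR-196a-5p is written in full in 2 hairpins, Mir196a-1 and Mir196a-2, while the 5p arms of Mir10a, Mir10b and Mir196b were each found in 1 microRNA hairpin of the annotation, and so was every 3p arm of the 6 genes and the 5p arm of Mir615. Capitals below mark the mature arms, 5p first.
Mir196a-1: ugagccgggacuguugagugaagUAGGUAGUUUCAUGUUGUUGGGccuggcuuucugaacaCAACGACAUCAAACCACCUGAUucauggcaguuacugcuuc
Mir196a-2: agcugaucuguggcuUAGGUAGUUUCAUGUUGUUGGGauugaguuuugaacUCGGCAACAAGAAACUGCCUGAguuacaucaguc
Mir10a: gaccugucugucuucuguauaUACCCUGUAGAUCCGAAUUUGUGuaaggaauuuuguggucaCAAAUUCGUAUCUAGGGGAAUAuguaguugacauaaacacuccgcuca
Mir10b: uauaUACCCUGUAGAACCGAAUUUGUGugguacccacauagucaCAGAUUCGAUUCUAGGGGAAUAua

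The 3p arms of Mir196a-1 and Mir196a-2 agree at only 5 of 22 bases when laid side by side. A read of miR-196a-5p fits both loci, and reads that fit more than 1 place entered no gene count, so the counts of these 2 genes are no measure of miR-196a. Such reads made up 43.9% of the library of replicate 1 and 43.2% of that of replicate 2, and the files do not say which sequences they hold.

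In the mm10 annotation each miR-10 gene lies shortly before the coding region of a Hox4 gene. Mir10a (ENSMUSG00000065519.1, chr11:96317165-96317274, plus strand) lies 1495 bp before that of Hoxb4, between genes. Mir10b (ENSMUSG00000065500.3, chr2:74726070-74726137, plus strand) lies 1141 bp before that of Hoxd4, in introns of the longer transcripts of Hoxd3 and Hoxd4. The miR-196 genes lie before Hox9 coding regions. Mir196b (ENSMUSG00000065443.1, chr6:52230081-52230165, minus strand) lies 3976 bp before that of Hoxa9 and overlaps an exon of 1 or more Hoxa9 transcripts. Mir196a-1 (ENSMUSG00000065546.1, chr11:96265164-96265265, plus strand) lies between genes, 6276 bp before the coding region of Hoxb9, and Mir196a-2 (ENSMUSG00000065488.2, chr15:102973350-102973434, plus strand) lies 8218 bp before that of Hoxc9, in an intron of a long Hoxc5 transcript. Mir615 (ENSMUSG00000076010.1, chr15:103014910-103015001, plus strand) lies in an intron of Hoxc5. Along its cluster from the Hoxc13 end it sits at 81.7% of the length, against 71.1% for Mir10a and 60.2% for Mir10b, and 29.5% to 45.5% for the miR-196 genes. By position it is therefore not a posterior locus, and sums over the miR-196 and miR-615 loci are given with and without it. All 6 genes are on the strand of their cluster. The clusters span 1 further annotated microRNA gene, Gm44463 on the opposite strand between Hoxd9 and Hoxd8, which had 0 counts in both libraries.

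**Figure D1:**
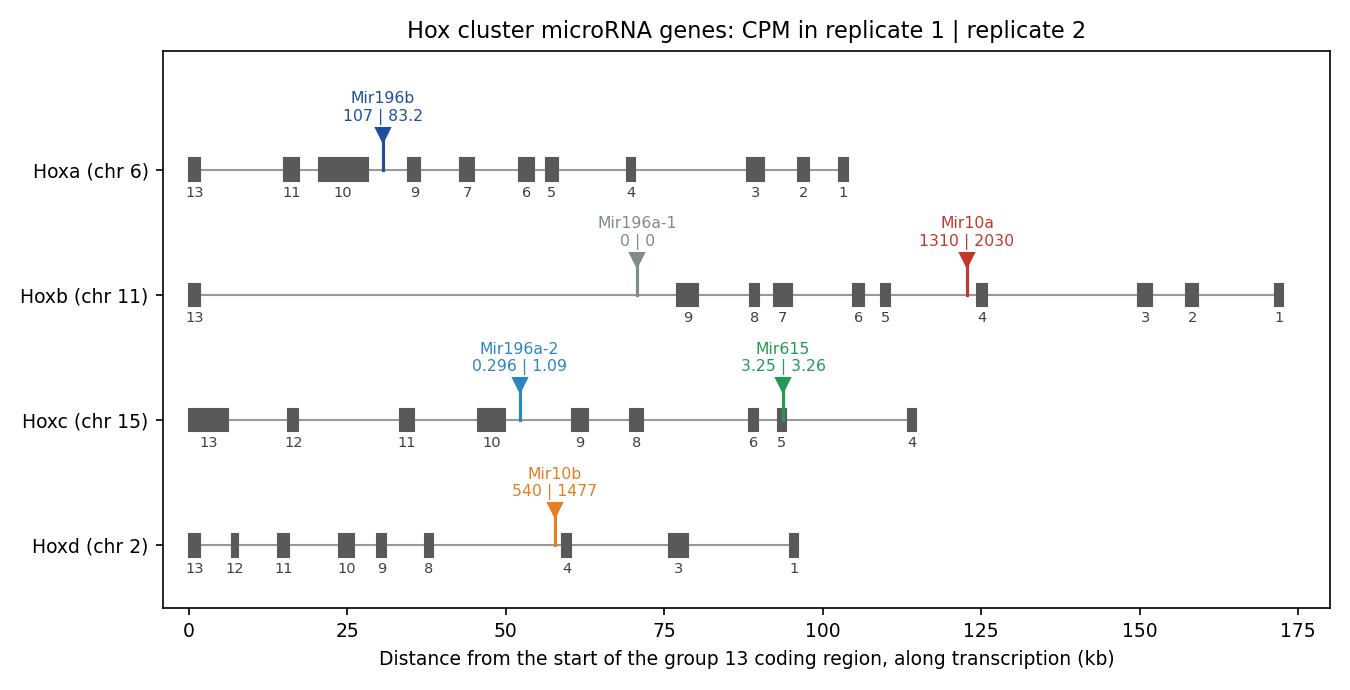
Map of the 4 mouse Hox clusters to scale, in kb from the start of the group 13 coding region along the direction of transcription. Grey boxes are the coding regions of Hox genes with their group number (drawn at least 0.9 kb wide), and triangles are the microRNA genes with their CPM in replicate 1 and replicate 2. Mir10a and Mir10b stand before group 4 genes and carry the highest values, the miR-196 genes stand before group 9 genes, and Mir615 stands inside Hoxc5.

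The libraries held 3383676 sense counts over microRNA genes in replicate 1 and 3676084 in replicate 2, and levels are scaled to these totals as CPM. CPM is per hairpin gene and is not divided by length, which differs little here, since all mature arms of the 6 genes have 22 or 23 bases. How evenly the preparation captured different sequences was not measured. Intervals cover counting error only. They and the tests below treat reads as independent, which reads amplified by PCR are not, so intervals may be too narrow and p-values too small. The tissue label was checked on the heart muscle microRNA genes Mir499 and Mir208a, which lie in cardiac myosin genes and reached 3772 ± 290 and 1418 ± 241 CPM (SD, n = 2), while 1494 of the 2202 genes had 0 counts in both libraries.

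The miR-10 loci were the Hox cluster microRNA genes with the most counts in both libraries. Mir10a had 4431 counts or 1310 CPM in replicate 1 (Wilson 95% interval 1272 to 1349) and 7462 counts or 2030 CPM in replicate 2 (1984 to 2076), a mean of 1670 ± 509 CPM (SD, n = 2). It ranked 53rd of the 2202 genes by mean. Mir10b had 1826 counts or 540 CPM in replicate 1 (515 to 565) and 5430 counts or 1477 CPM in replicate 2 (1438 to 1517), a mean of 1008 ± 663 CPM, and ranked 66th. Both genes stood lower in replicate 1, and the intervals of the libraries did not overlap for either gene.

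Within a library Mir10a was always the higher of the miR-10 genes. The count of Mir10b over that of Mir10a was 0.412 in replicate 1 (0.390 to 0.435, exact 95% interval) and 0.728 in replicate 2 (0.703 to 0.754), a mean of 0.570 ± 0.223 (SD, n = 2). The gap between their means, 661 CPM, was no larger than the SD of Mir10b. The order was thus the same in 2 of 2 libraries, with each interval of the ratio below 1. The means did not differ beyond the spread of Mir10b, but that spread is between libraries and ignores the pairing within each.

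Mir196b was the only miR-196 gene with more than a few counts. It had 362 counts or 107 CPM in replicate 1 (96.5 to 119) and 306 counts or 83.2 CPM in replicate 2 (74.4 to 93.1), a mean of 95.1 ± 16.8 CPM, and ranked 140th. It was higher in replicate 1 than in replicate 2, opposite in direction to both miR-10 genes. Mir10b, its next higher neighbour in the order, exceeded it by a factor of 5.04 in replicate 1 (4.50 to 5.66, exact 95% interval) and of 17.7 in replicate 2 (15.8 to 20.0), and the gap of their means was larger than either SD.

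Mir615 and the miR-196a loci had counts near the limit of detection. Mir615 had 11 counts or 3.25 CPM in replicate 1 (1.82 to 5.82) and 12 counts or 3.26 CPM in replicate 2 (1.87 to 5.71). Mir196a-2 had 1 count or 0.296 CPM in replicate 1 (0.0522 to 1.67) and 4 counts or 1.09 CPM in replicate 2 (0.423 to 2.80), so that its interval overlapped that of Mir615 in replicate 2. Mir196a-1 had 0 counts in both. The limit set for 0 counts was 3 counts, or 0.887 CPM in replicate 1 and 0.816 CPM in replicate 2. Its Wilson upper limits were 1.14 CPM in replicate 1 and 1.04 CPM in replicate 2. These limits hold for reads placed at the locus and not for miR-196a-5p, whose reads cannot be placed. At least 10 counts in each library, the definition of a detected gene here, were reached by 4 of the 6 members, Mir10a, Mir10b, Mir196b and Mir615, against 14.4% of all 2202 genes. Mir615 passed this minimum by 1 and 2 counts.

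**Figure D2:**
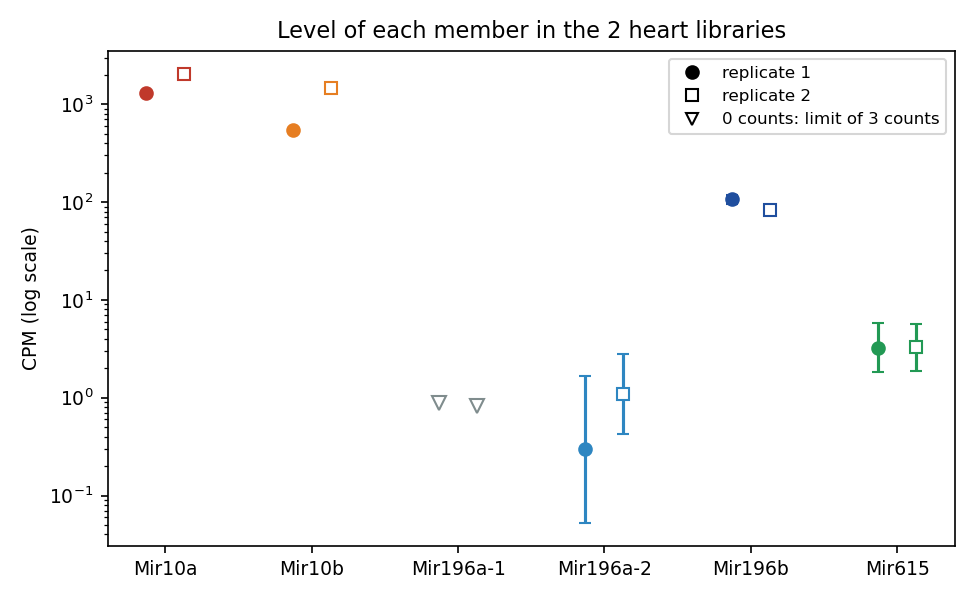
CPM (log scale) of each Hox cluster microRNA gene, with filled circles for replicate 1 and open squares for replicate 2. Bars are Wilson 95% intervals of the counts, smaller than the symbols for the miR-10 genes, and open triangles mark 0 counts at the limit of 3 counts. Mir10a and Mir10b lie at 540 CPM or more in each library, Mir196b near 100 and the other genes below 4.

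Summed by class, the miR-10 loci took 1849 CPM in replicate 1 (Wilson 95% interval 1804 to 1896) and 3507 CPM in replicate 2 (3447 to 3568), or 0.268% ± 0.117 of all sense counts. The 4 other loci together took 111 CPM in replicate 1 (99.9 to 122) and 87.6 CPM in replicate 2 (78.5 to 97.7), or 0.00991% ± 0.00162. The miR-10 loci thus exceeded the miR-196 and miR-615 loci by a factor of 16.7 in replicate 1 (15.1 to 18.6, exact 95% interval) and of 40.0 in replicate 2 (35.8 to 44.9), with a mean of 28.4 ± 16.5 (SD, n = 2). The ratio exceeded 1 in both libraries, but its size differed between them by more than counting error. Without Mir615, a choice made after seeing the data, it was 17.2 in replicate 1 and 41.6 in replicate 2. It leaves out the reads of miR-196a-5p and so bounds no ratio of the mature families. Of the counts of the 6 genes, Mir10a held 66.8% in replicate 1 and 56.5% in replicate 2, Mir10b held 27.5% and 41.1%, and Mir196b held 5.46% and 2.32%, in the same order of libraries.

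Within the clusters that hold more than 1 member, levels could not be set against each other for miR-196a. In the Hoxb cluster, Mir10a stands 51.9 kb from Mir196a-1 on the same strand, and the 0 counts of Mir196a-1, whose 5p reads cannot be placed, show no difference in level. In the Hoxc cluster, Mir615 stands 41.5 kb from Mir196a-2, and each had 12 counts or fewer in each library. The Hoxa cluster holds Mir196b and the Hoxd cluster holds Mir10b, each as the only member.

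The genes next to each detected member in mean CPM were picked for that closeness, so their small gaps are fixed by the choice and are no result. Above Mir10a stood Mir361 and Mir130a, and below it Mir28a and Mir17, at 1455 to 1696 CPM, all 4 within 1 SD of Mir10a. Around Mir10b stood Mir30c-2, Mir676, Mir142 and Mirlet7a-1, at 941 to 1123 CPM, again 4 of 4 within its SD. Around Mir196b stood Mir1249, Mir669o, Mir1843b and Mir148b, at 92.1 to 97.1 CPM. Around Mir615 stood Mir6934, Mir7647, Mir494 and Mir133a-1, at 3.05 to 3.38 CPM. Of these 4, 0 lay within the SD of Mir615, and 4 within the larger SD of the pair. The likeness is one of mean level over 2 libraries only. Reads that fit more than 1 place are left out of these levels, and shared arms were not checked for the genes around Mir615. Their low CPM is therefore no measure of their mature RNAs. Within libraries Mir142 ran near Mir10b, at 570 CPM in replicate 1 and 1323 CPM in replicate 2. Mir30c-2 did not, at 1145 CPM in replicate 1 and 1102 CPM in replicate 2, against 540 and 1477 CPM for Mir10b.

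**Figure D3:**
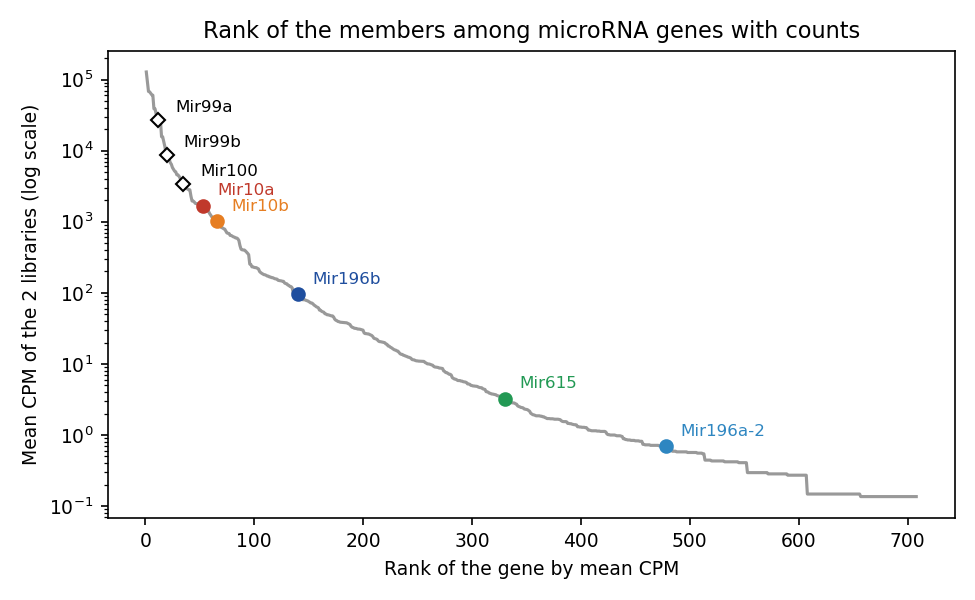
Mean CPM of the 2 libraries (log scale) against the rank of the gene, for all genes with counts (line), with the members as filled circles and the sequence relatives of miR-10 as open diamonds. Mir10a and Mir10b rank 53rd and 66th, Mir196b 140th and Mir615 330th, while Mir99a, Mir99b and Mir100 all rank above the miR-10 genes.

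The miR-99 and miR-100 genes, which lie outside the Hox clusters, are the relatives of miR-10 by sequence, and they are shown for the run they share with it at a shifted place. Capitals mark the shared run of 11 bases, at bases 7 to 17 of miR-10a-5p and 6 to 16 of miR-100-5p.
miR-10a-5p: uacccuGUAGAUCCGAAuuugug
miR-100-5p: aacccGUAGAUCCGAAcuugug

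Their seed, ACCCGUA in all 3 genes, is not that of miR-10. Mir99a reached 27063 ± 6291 CPM, Mir99b 8584 ± 45.3 CPM and Mir100 3402 ± 695 CPM (SD, n = 2). Mir10a therefore stood below all 3 of its relatives in mean level. The count of Mir10a over that of Mir99a was 0.0579 in replicate 1 (0.0562 to 0.0597, exact 95% interval) and 0.0644 in replicate 2 (0.0629 to 0.0659).

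The seed of miR-196 recurs in let-7, the family known for promoting differentiation, but 1 base further on. Capitals mark the shared run, at bases 2 to 8 of miR-196a-5p and 3 to 9 of let-7a-5p.
miR-196a-5p: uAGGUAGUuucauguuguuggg
let-7a-5p: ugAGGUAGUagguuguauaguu

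Among the mature entries of the RefSeq table, 11 genes carry these bases at 3 to 9, 9 of them let-7 genes. Mirlet7a-2, whose hairpin also holds let-7a-5p, is not among them, because the table lists no 5p entry for it. The miR-196 loci together had 107 CPM in replicate 1 and 84.3 CPM in replicate 2, against 228819 CPM in replicate 1 and 255688 CPM in replicate 2 for the 12 let-7 and Mir98 loci. These 12 were taken by name and are not the same set as the 11, since they include Mirlet7a-2 and Mirlet7e. Both sums leave out reads that fit several loci.

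The best-known pairing of miR-196 is with the messenger RNA of Hoxb8, a trunk Hox gene, which it cleaves in the embryo. The closest match to miR-196a-5p in the last 848 bases of that messenger RNA, from the stop codon on, lies at chr11:96284888-96284909 (mm10, plus strand). Capitals mark the bases opposite the seed.
Hoxb8 site: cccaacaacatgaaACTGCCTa

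Of its 22 bases, 21 pair with miR-196a-5p and 1 forms a G:U wobble, at base 5 of the microRNA and so within the seed. With miR-196b-5p, the 5p arm of Mir196b, 20 bases pair, 1 forms the wobble and 1 mismatch is added at base 12, where the 2 microRNAs differ. Messenger RNA was not measured in these libraries, so the match is a description of sequence only.

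The miR-10 genes were lower in replicate 1 than in replicate 2 by more than counting noise, and Mir196b was higher. Each gene's sense counts were set against each other in an exact binomial test, two-sided, scaled by TMM effective library sizes and adjusted by Benjamini-Hochberg over the 316 detected genes. The test compares these 2 libraries and not conditions. It called 3 of the 4 detected members, in a background where 60.1% of all detected genes were called, 33.5% lower and 26.6% higher in replicate 1. A share of that size says nothing particular about the members. Mir10a had a log2 ratio of replicate 1 over replicate 2 of -0.52 (exact binomial test, adjusted p = 1.17e-82), or 0.696 times on the scaled counts (exact 95% interval 0.670 to 0.722). Mir10b had a log2 ratio of -1.34 (exact binomial test, adjusted p = 2.37e-293), or 0.394 times (0.374 to 0.416). Mir196b had a log2 ratio of 0.47 (exact binomial test, adjusted p = 6.21e-05), or 1.39 times (1.19 to 1.62). Mir615 had a log2 ratio of 0.10 (exact binomial test, adjusted p = 1), with an interval of 0.430 to 2.66 times. A difference of either sign within that interval could not be told from none at this depth.

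Mir10b lay toward the edge of the spread between the libraries. Of the 316 detected genes, 246 (77.8%) lay within 2-fold, and Mir10b was outside it, with 21 genes at a lower log2 ratio. The log2 ratios of 90% of the genes fell between -1.63 and 1.45, with a median of -0.07, so all 4 detected members were inside that range. Their own median was -0.21.

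**Figure D4:**
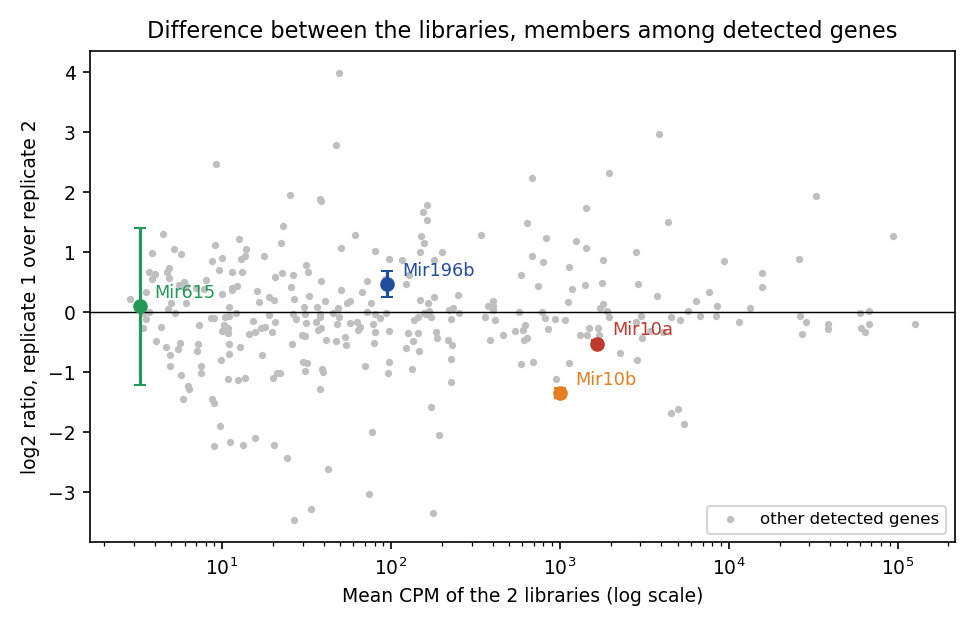
The log2 ratio of replicate 1 over replicate 2 on TMM-scaled counts, against mean CPM (log scale), for the 316 detected genes, with the 4 detected members in colour and their exact 95% intervals. Mir10b (-1.34) and Mir10a (-0.52) lie below 0, Mir196b (0.47) above it, and the interval of Mir615 spans 0.

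Marker lists of heart cell types and of other tissues also differed between the libraries, the lists of kidney and intestine and of other epithelia by the largest factors (4.11 and 0.252, replicate 1 over replicate 2), and their part in the difference of the miR-10 genes was not tested. In bulk tissue, fewer cells of a type and less RNA per cell cannot be told apart. The calls below stand against 60.1% of all detected genes called, 33.5% lower and 26.6% higher in replicate 1. Like the miR-10 genes, the white blood cell genes were lower in replicate 1, in 5 of 5 cases. Their summed level was 8644 CPM in replicate 1 against 16363 CPM in replicate 2. Of the 5, Mir155 was lower by little, with a log2 ratio of -0.085 near the median of -0.069 over all detected genes. Both smooth muscle genes, Mir143 and Mir145a, were also lower in replicate 1 (35639 CPM in replicate 1 and 50822 CPM in replicate 2, the order kept below). The same held for 6 of 7 detected genes of other epithelia (216 and 857 CPM). Opposite in direction, and like Mir196b, the endothelial gene Mir126a was higher in replicate 1 (129044 and 57715 CPM for the list, in which Mir126b had 4 counts in replicate 1 and 1 in replicate 2), as were 3 of 3 heart muscle genes (5624 and 4831 CPM), 3 of 3 erythroid genes (4182 and 1938 CPM) and 4 of 4 genes of kidney and intestine (172 and 41.9 CPM). The fibroblast and stroma list went both ways, with 2 genes higher and 1 lower in replicate 1 among 5 detected (5481 and 4548 CPM) and Mir199a-1 at 0 counts in both libraries. These 0 counts do not show absence, since reads that fit more than 1 place entered no gene count. Arms shared between loci were not checked for the marker genes. Neither skeletal muscle gene was called (11.8 and 19.9 CPM).

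No member had a count on the antisense strand in either library, and the counts for reads on either strand equalled the sense counts for all 6 genes. The strand column chosen therefore left the counts of the members, and every ratio between them, as they were.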

How the data were processed

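For each of 2 heart libraries the authors deposited counts by microRNA gene, not normalized, in 3 columns with no header. They were read as either strand, sense strand and antisense strand from their totals and from genes that overlap on opposite strands, not from a label. Reads were assigned on mm10 with GENCODE M21, per the readme text beside the deposited counts. Which aligner and counter were run is not given in the sources used here, and CAST/EiJ variants could lower counts, which was not tested. In the sense column, rows that are no genes held 14.9% unmapped, 43.9% multimapping and 5.07% featureless reads in replicate 1, and 16.2%, 43.2% and 5.75% in replicate 2, and were left out. All 2202 identifiers matched GENCODE M21.

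From the sense counts, CPM on gene totals, Wilson and exact 95% intervals, and ratios were computed. Libraries were compared by exact binomial tests across genes with 10 counts or more in each, on TMM effective library sizes (edgeR 4.0.16), adjusted at 0.05. The binomial test and its adjustment were tried on simulated counts with known library totals and no spread beyond counting noise. Scaling, intervals and ratios were not simulated. DESeq2 1.42.0 gave alternative size factors. Tests ran in scipy 1.17.1 under Python 3.11.15 with pandas 2.3.3 and numpy 2.4.6, scaling in R 4.3.3, and plots in matplotlib 3.10.9. Other choices tried were the strand column, depth, minimum counts, scaling, the CPM denominator and each library left out. Named are the 6 members, the 2 genes next above and below each detected member, other microRNA genes in Hox clusters, sequence relatives and markers. The members and lists were chosen with earlier results of these data known.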

Additional observations from a re-analysis of the deposited data

How the results depend on the processing

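With all reads of the library in place of sense gene counts as the CPM denominator, the miR-10 loci stood at 945 CPM and the miR-196 and miR-615 loci at 35.2, because the denominator is larger. With reads on either strand the miR-196 and miR-615 loci stood at 133, because that column's total is smaller. With replicate 1 or replicate 2 left out, the miR-10 loci lay at 1849 to 3507 CPM and the other loci at 87.6 to 111 CPM. The ratio of the classes lay at 16.7 to 40.0 and Mir10b over Mir10a at 0.412 to 0.728, so both ratios depended on the library. Leaving out 1 of 2 libraries cannot move a mean past their SD, and ratios between members cannot change with the strand column, so neither bears on stability. The calls of Mir10a (log2 ratio -0.63 to -0.51), Mir10b (-1.45 to -1.33) and Mir196b (0.36 to 0.49; exact binomial test, adjusted p 4.67e-05 to 0.00251) held under each of 7 alternatives. Several of these could hardly move them. Changing the minimum count left the ratios as they were and altered only the adjustment, and the either-strand counts of the members equal the sense counts. The ratio of Mir615 turned to -0.0028 with the deeper library thinned and to -0.0060 with library totals, never past the threshold, and it could not be tested at a minimum of 20 counts, which leaves 3 members detected. Over all detected genes the median was -0.18 with library totals, against -0.07 with TMM. No paired analysis was possible because there is 1 group. Depth limits Mir615. The miR-196a loci also had few counts, but unplaced multimapping reads limit any statement on miR-196a, whatever the depth.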
